A study of Mus musculus with 18 samples.

Results

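Translation initiation factors load the initiator tRNA and the messenger RNA onto the small ribosomal subunit and then join the subunits. The transcripts of these factors were followed in skeletal muscle of wild-type (WT) mice and of mice without PGC-1β in muscle (MKO), each fed ad libitum or fasted for 24 h. The members were all genes of the deposited expression table whose name begins with Eif1 to Eif6 and that reached at least 0.5 TPM (a share of all transcripts of a library, corrected for transcript length) in at least 4 of the 18 libraries. The name matched 63 of 46983 genes, of which 53 passed and 10 did not. Among those 53, 52 reached 0.5 TPM in all 18 libraries and Eif3j2 did so in 16. The 10 others were pseudogenes or genes close to 0, among them Eif4ebp3 with at most 0.387 TPM. All 53 members are annotated as protein coding.

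The mice were C57Bl6/J. MKO mice carried a floxed PGC-1β allele and Cre under the human skeletal actin promoter, which is active in muscle fibers and not in the other cells of the tissue. WT mice carried the same floxed allele without Cre, so both genotypes share the loxP sites. Poly(A) RNA was sequenced from 4 WT fed, 5 MKO fed, 4 WT fasted and 5 MKO fasted muscles, each labelled as a biological replicate. The sample labels name quadriceps, whereas the methods supplement of the study names gastrocnemius for the sequencing, and the tables do not settle which muscle it was.

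Most of the work of initiation falls to a few groups of factors. eIF2 brings the initiator tRNA, eIF2B recharges eIF2 with GTP, and 4 kinases lower initiation in stress by phosphorylating eIF2α. eIF3 is a scaffold of many subunits on the small ribosomal subunit, eIF4E binds the cap of the messenger, eIF4G bridges cap and ribosome, and eIF4A with eIF4B and eIF4H unwinds the leader. The 4E-binding proteins keep eIF4E from eIF4G and let go when mTORC1 phosphorylates them, which makes this step a main link between feeding and translation in muscle. eIF5 and eIF5B act at start codon choice and subunit joining, and eIF5A helps the ribosome past difficult peptide bonds.

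Before the results, 1 library and 1 property of the scale need to be named. Transcripts of the mitochondrial genome took 74.3 to 75% of all TPM in WT fed, 67.4 to 70.4% in MKO fed and 61.5 to 67.9% in MKO fasted muscle. In WT fasted muscle the share was 70.8 to 73.5% in replicates 1 to 3 and 81.3% in replicate 4. TPM sum to the same total in every library, and the median of 12111 tested genes stood 0.27 (log2) above WT in MKO fed muscle and 0.32 above it in fasted muscle (0.21 without WT fasted replicate 4). Changes are therefore given as deposited and relative to the median gene, that is once all libraries had been brought to 1 common median. WT fasted replicate 4 stood apart: it was the lowest of its group in 51 of 53 members as deposited (71.5% of all tested genes) and in 30 of 53 relative to the median gene. Its fiber markers (6 genes such as Acta1 and Ckm) summed to 25930 TPM against a group median of 47560, its slow-fiber markers (8 genes) to 678 TPM against 274, and its adipocyte markers to 11.6 against 29.5. Where leaving it out ended calls or moved a value markedly, both values are given. Ppargc1b, the targeted gene, lay at 1.45 to 2.05 TPM in WT fed and 1.76 to 2.35 TPM in MKO fed libraries, and at 0.726 to 1.47 TPM in WT fasted and 0.422 to 1.11 TPM in MKO fasted libraries. Its TPM include the exons that Cre leaves in place, so these values do not check the genotype labels.

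The members differed widely in level. In WT fed muscle the mean was at least 100 TPM for 2 of 53, from 10 to under 100 TPM for 35 and under 10 TPM for 16. Eif1, which guards start codon selection, was the highest at 288 ± 10.5 TPM, followed by Eif4g2, an eIF4G relative that does not bind eIF4E, at 142 ± 8.67 and Eif4ebp2 at 97.5 ± 9.65 (mean ± SD, n = 4). The ranges of Eif4ebp2 and of Eif5a (95.6 ± 7.53) overlapped, so their order is not resolved. At the low end stood Eif5a2 (0.802 ± 0.162) and 3 of the 4 eIF2 kinases, Eif2ak2, Eif2ak3 and Eif2ak4, with means from 0.846 to 1.46 TPM. The remaining kinase, Eif2ak1, which senses heme, lay higher at 10.1 ± 0.393 TPM.

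Most changes seen on both scales came with fasting. In WT muscle 24 members rose and 5 fell relative to the median gene, which is 54.7% of the members against 44.5% of all tested genes called (limma, adjusted p under 0.05 over 12111 genes). In MKO muscle 28 rose and 4 fell, 60.4% against 42.9%. The surplus lay in the rising direction: 45.3% of the members rose in WT muscle against 19.9% of all genes, and 52.8% in MKO muscle against 20.2%, whereas 9.43% and 7.55% fell against 24.6% and 22.7%. All 24 members that rose in WT muscle were among the 28 that rose in MKO muscle. Eif1, Eif1b, Eif3e and Eif4h were called in MKO muscle alone, and their interaction with genotype did not pass the test. As deposited, 14 members rose and 3 fell in WT muscle (35.9% of all genes called, 15.3% higher and 20.7% lower) and 24 rose and 2 fell in MKO muscle (33.8%, 18.1% and 15.8%). The groups of libraries did not overlap for 27 members in WT and 28 in MKO muscle relative to the median gene. Over all genes this held for 15.9% rising and 20.3% falling in WT muscle and for 16% and 16.3% in MKO muscle. As deposited it held for 7 members in WT muscle (8.14% and 17.9% of all genes) and for 29 in MKO muscle (17.2% and 12.8%). Without WT fasted replicate 4 the counts in WT muscle relative to the median gene were again 24 and 5, the same 29 members. As deposited, 28 members were called without it, 52.8% of members against 43.6% of all genes (47.2% against 25.3% higher). In bulk muscle, a change in how many cells of a type are present and a change in RNA per cell cannot be told apart.

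**Figure D1:**
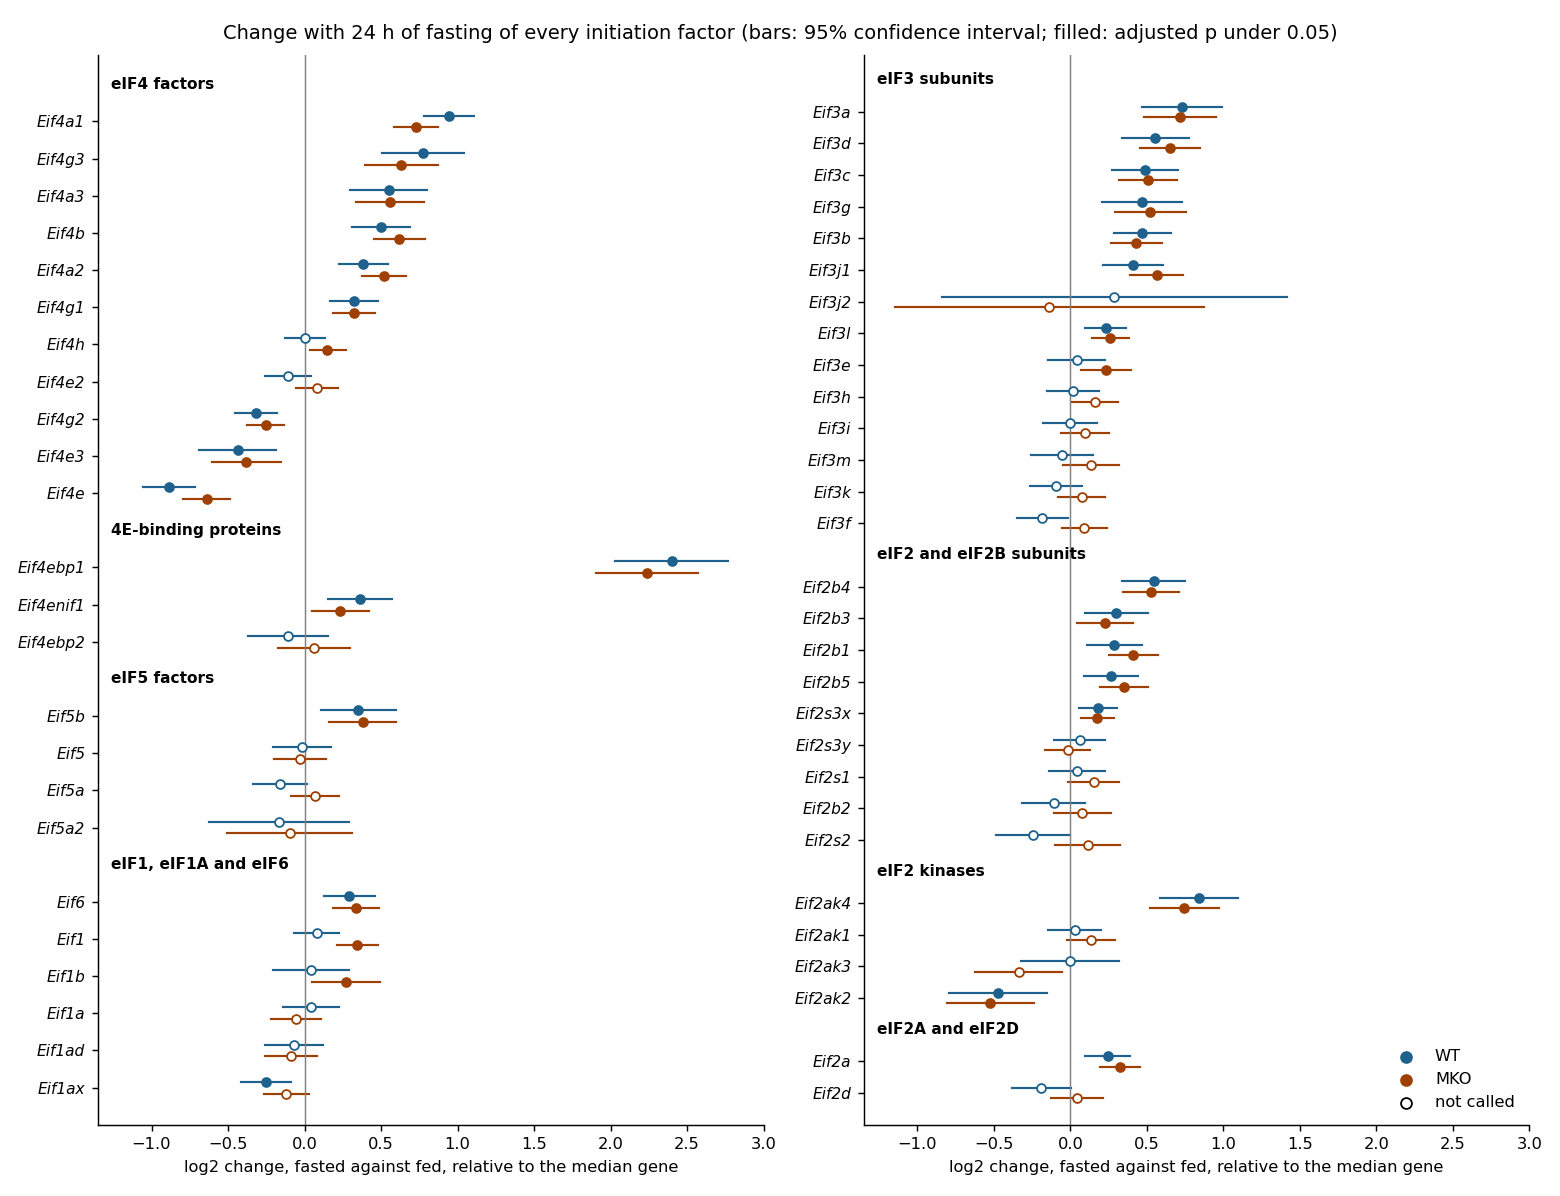
Change with 24 h of fasting of all 53 initiation factors, relative to the median gene, as log2 with 95% confidence intervals. Blue is WT (4 fasted against 4 fed), brown is MKO (5 against 5), filled points are called at an adjusted p under 0.05. Eif4ebp1 lies farthest right in both genotypes (2.40 and 2.24) and Eif4e farthest left (-0.88 and -0.64), and the eIF3 subunits divide into a set that rose and a set near 0.

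The cap-binding step showed the widest spread. Of 11 measured eIF4 factors, 6 rose and 3 fell in WT muscle and 7 rose and 3 fell in MKO muscle relative to the median gene. That is 81.8% and 90.9% of the list, where 44.5% and 42.9% of all genes were called (19.9% and 20.2% higher). As deposited, 5 rose and 2 fell in WT and 6 rose and 1 fell in MKO muscle (35.9% and 33.8% of all genes called). Relative to the median gene, the median change of the eIF4 factors was 0.32 in both genotypes, where the median over all tested genes was -0.07 and -0.05. Eif4e, the cap-binding subunit itself, fell, while Eif4ebp1, its inhibitor, rose more than any other member.

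Eif4ebp1 (ENSMUSG00000031490, chromosome 8, 27260329 to 27276674, plus strand of GRCm38) encodes 4E-BP1, the best known of the mTORC1-regulated eIF4E inhibitors. Its TPM were 22.3, 21.1, 28.4 and 21.7 in WT fed and 23.9, 27, 21, 21.1 and 22 in MKO fed libraries. After fasting they were 145, 162, 143 and 69.6 in WT and 130.0, 167, 85.2, 87.2 and 111 in MKO libraries. Every fasted library, replicate 4 of WT included, lay above every fed library, the lowest fasted value of 69.6 being far over the highest fed value of 28.4. The log2 change relative to the median gene was 2.40 ± 0.18 in WT (± SE; adjusted p = 1.22e-08) and 2.24 ± 0.16 in MKO muscle (adjusted p = 5.83e-09), and without WT fasted replicate 4 it was 2.57 in WT muscle. The interaction was -0.16 ± 0.24 with a 95% interval from -0.66 to 0.33 (adjusted p = 0.819).

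Eif4ebp2, the paralog that is the more abundant in fed muscle, did not pass the test in either genotype. Fed libraries held 104, 91.1, 107 and 87.6 TPM in WT and 136, 132, 96.1, 104 and 127 TPM in MKO muscle. Fasted libraries held 102, 106, 107 and 58 TPM in WT and between 116 and 151 TPM (median 123) in MKO muscle. Fed and fasted values overlapped in both genotypes, and WT fasted replicate 4 alone lay far under its group. The change relative to the median gene was -0.11 ± 0.12 in WT (95% interval -0.37 to 0.15) and 0.06 ± 0.11 in MKO muscle (-0.17 to 0.29). The ratio of Eif4ebp2 to Eif4ebp1 in a library, which no scaling alters, went from 4.20 ± 0.38 to 0.735 ± 0.075 in WT (SD, n = 4) and from 5.18 ± 0.53 to 1.16 ± 0.25 in MKO muscle (n = 5). Eif4ebp2 thus exceeded Eif4ebp1 in all 9 fed libraries. Eif4enif1, the 4E-transporter that carries eIF4E into the nucleus, rose by 0.36 in WT and 0.23 in MKO muscle, the latter call being lost when any of 7 libraries was left out (adjusted p up to 0.111).

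Eif4e (ENSMUSG00000028156, chromosome 3, 138526179 to 138559696, plus strand) fell in both genotypes. Its TPM were 22.5, 19.9, 22 and 22.4 in WT fed, 22.3, 22.4, 24.5, 21.7 and 23 in MKO fed, 13.3, 12.1, 12.6 and 9.37 in WT fasted and 14.2, 14.2, 16.2, 16 and 15.1 in MKO fasted libraries. No fasted library reached the lowest fed one in either genotype. The change relative to the median gene was -0.88 ± 0.08 in WT (adjusted p = 1.43e-07) and -0.64 ± 0.07 in MKO muscle (adjusted p = 1.83e-06). The interaction of 0.24 ± 0.11 did not pass the test (adjusted p = 0.394). Within a library Eif4ebp1 was 1.08 ± 0.14 times Eif4e in WT fed and 1.01 ± 0.13 times in MKO fed muscle, and 10.8 ± 2.5 and 7.80 ± 2.7 times after fasting (SD). Of the other cap-binding members, Eif4e3 fell by 0.44 and 0.38 and Eif4e2, the homolog 4EHP that competes for the cap, was not called (-0.11 and 0.08).

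**Figure D2:**
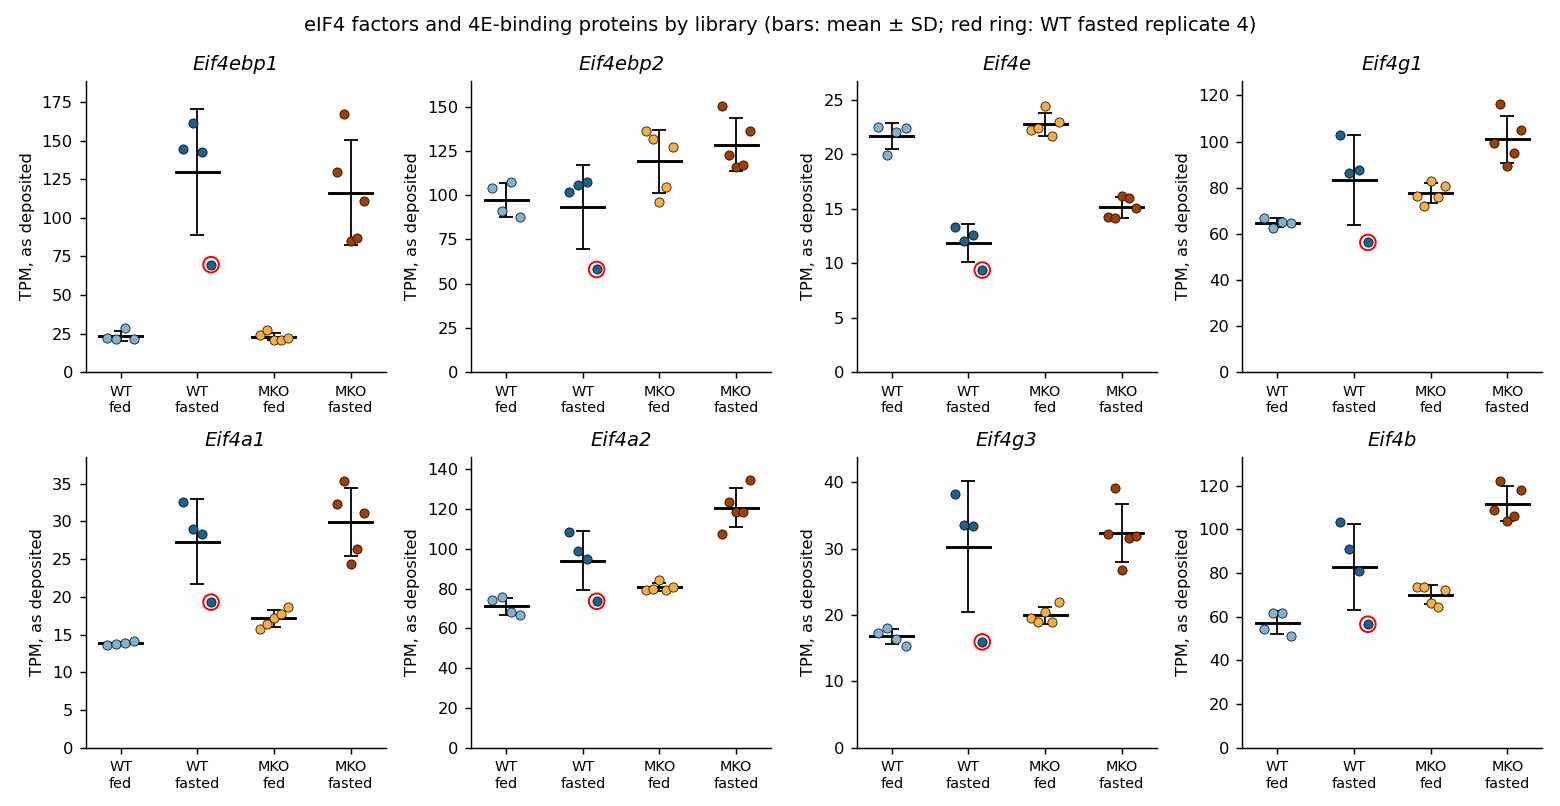
TPM as deposited of 8 eIF4 factors and 4E-binding proteins in each library, with mean ± SD by group. Points are libraries (4 WT fed, 4 WT fasted, 5 MKO fed, 5 MKO fasted), and the red ring marks WT fasted replicate 4. Eif4ebp1 rises and Eif4e falls without overlap, Eif4ebp2 overlaps between fed and fasted, and the ringed library is the lowest of its group in every panel.

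The helicase genes Eif4a1 and Eif4a2 and the scaffold genes Eif4g1 and Eif4g3 moved the other way from Eif4e. Eif4a1, an eIF4A helicase, had 13.6, 13.8, 13.9 and 14.1 TPM in WT fed and 15.8, 16.4, 17.2, 17.8 and 18.7 TPM in MKO fed libraries. After fasting it had 32.6, 29, 28.4 and 19.3 TPM in WT and 32.3, 35.3, 24.3, 26.3 and 31.1 TPM in MKO libraries. The 4 WT fed values lay within 1 TPM of each other and all fasted values were higher, in MKO muscle likewise. The change relative to the median gene was 0.94 ± 0.08 in WT (adjusted p = 4.03e-08) and 0.73 ± 0.07 in MKO muscle (adjusted p = 1.88e-07).

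Eif4a2, the more abundant eIF4A paralog of this tissue, also rose in both genotypes. Its TPM were 74.1, 75.7, 68.4 and 66.8 in WT fed and 108, 99.2, 95.2 and 73.7 in WT fasted libraries. In MKO muscle they were 79.4, 79.7, 84.4, 79.2 and 81.1 fed and 108, 124, 119, 119 and 135 fasted. WT fasted replicate 4 fell within the WT fed range as deposited, whereas all MKO fasted libraries were above all MKO fed ones. The changes relative to the median gene were 0.38 ± 0.08 and 0.52 ± 0.07 (adjusted p = 4.95e-04 and 8.83e-06). The ratio of Eif4a2 to Eif4a1 went from 5.15 ± 0.38 to 3.48 ± 0.23 in WT and from 4.72 ± 0.30 to 4.11 ± 0.67 in MKO muscle, where the fed and fasted libraries overlapped. Eif4a3, the homolog that serves the exon junction complex rather than initiation, rose by 0.55 and 0.56.

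Eif4g1, the main eIF4G scaffold, had 66.9, 62.7, 65.2 and 64.6 TPM in WT fed and 103, 86.5, 87.8 and 56.2 TPM in WT fasted libraries. In MKO muscle it had 76.2, 72.1, 82.8, 76 and 80.7 TPM fed and 99.4, 116, 89.4, 94.8 and 105 TPM fasted. As deposited WT fasted replicate 4 was below every fed library, and the change in WT muscle was not called (0.33 ± 0.13, adjusted p = 0.0614). Relative to the median gene that library held 78.9 against at most 73.5 in WT fed muscle, and the change was 0.32 ± 0.07 in WT and 0.32 ± 0.07 in MKO muscle (adjusted p = 0.00175 and 7.86e-04).

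Eif4g3, the eIF4GII paralog, had 17.3, 18.1, 16.3 and 15.4 TPM in WT fed and 38.2, 33.6, 33.5 and 16 TPM in WT fasted libraries. In MKO muscle the values were 19.6, 18.9, 20.5, 18.9 and 22 TPM fed and 32.2, 39.2, 26.8, 31.7 and 31.9 TPM fasted. The groups overlapped in WT muscle only through replicate 4. Its change was 0.77 ± 0.13 and 0.63 ± 0.11, and the ratio of Eif4g1 to Eif4g3 went from 3.88 ± 0.31 to 2.85 ± 0.45 and from 3.89 ± 0.15 to 3.14 ± 0.17. In WT muscle the ratio of replicate 4 (3.52) reached into the fed range, and in MKO muscle fed and fasted ratios did not overlap. Eif4g2, by contrast, fell by 0.32 and 0.25 relative to the median gene.

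Eif4b, the helicase cofactor, had 54.4, 61.6, 61.9 and 51.1 TPM in WT fed and 103, 91, 80.8 and 56.6 TPM in WT fasted libraries. It had 73.5, 73.4, 66.4, 64.4 and 72.4 TPM in MKO fed and 109, 122, 104, 106 and 118 TPM in MKO fasted libraries. Again only WT fasted replicate 4 lay among the fed values as deposited, and Eif4b rose by 0.50 in WT and 0.62 in MKO muscle (adjusted p = 2.20e-04 and 8.78e-06). Eif4h, its relative, stood at 0.00 in WT and 0.15 in MKO muscle, a call lost when any of 8 libraries was left out.

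**Figure D3:**
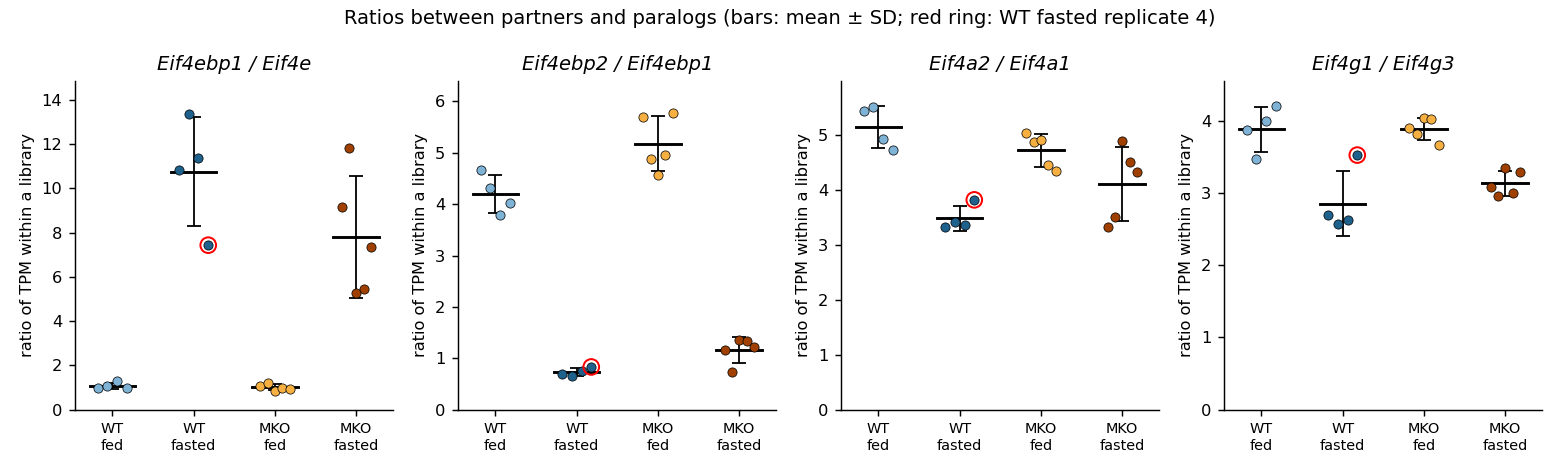
Ratios of TPM between partners and paralogs within each library, which do not depend on the scaling, with mean ± SD by group. From left to right the mean goes from 1.08 to 10.8, 4.20 to 0.735, 5.15 to 3.48 and 3.88 to 2.85 between WT fed and WT fasted muscle. WT fasted replicate 4 (red ring) lies with its group for the ratio of Eif4ebp2 to Eif4ebp1.

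The promoter letters of these subunits were read because the cap complex split in direction. Of the 53 members, 43 have a window from 250 bases before to 50 after a gene start in RefSeq (GRCm38.p6), and Eif1a, Eif2b3, Eif3e, Eif3h, Eif3i, Eif3j2, Eif4e3, Eif4ebp1, Eif4g2 and Eif6 have none in the table used. The E-box letters CACGTG, a palindrome that Myc and related helix-loop-helix factors bind, occurred in 10 of 43 members (23.3%) and in 8.09% of 27025 genes with a window. Those 27025 are all genes with a window, including genes not tested here, whereas every member passed the expression filter. GTAAACA, a FoxO site, occurred in Eif2s3y alone (2.33% against 4.05%), and TGATGNAA, the element of ATF4 with C/EBP, in Eif2s3x alone (2.33% against 4.51%), on either strand, with no overlap between motifs. The 3 motifs were chosen with the results known, and a match is only a description. A gene counted as holding a motif if any of its windows did, and 6 members, Eif4e among them, have several. The 250 bases before the start of the cap-binding, helicase and scaffold genes are shown because these are the subunits of the eIF4F complex, of which Eif4e fell and Eif4a1 and Eif4g1 rose. Capitals mark the E-box letters. The stretches lie at chr3:138525941-138526190 on the plus strand for Eif4e, at the first of its 2 starts, at chr11:69672424-69672673 on the minus strand for Eif4a1 and at chr16:20672477-20672726 on the plus strand for Eif4g1.
Eif4e: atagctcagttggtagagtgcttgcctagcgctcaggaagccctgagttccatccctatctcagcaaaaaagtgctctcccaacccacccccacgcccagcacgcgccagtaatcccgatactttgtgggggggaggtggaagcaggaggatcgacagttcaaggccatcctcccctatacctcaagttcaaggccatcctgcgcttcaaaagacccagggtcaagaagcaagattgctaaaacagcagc
Eif4a1: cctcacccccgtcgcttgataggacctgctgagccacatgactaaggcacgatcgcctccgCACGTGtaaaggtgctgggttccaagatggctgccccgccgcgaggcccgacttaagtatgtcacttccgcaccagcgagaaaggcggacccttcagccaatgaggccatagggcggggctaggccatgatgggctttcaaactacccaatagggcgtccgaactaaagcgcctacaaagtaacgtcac
Eif4g1: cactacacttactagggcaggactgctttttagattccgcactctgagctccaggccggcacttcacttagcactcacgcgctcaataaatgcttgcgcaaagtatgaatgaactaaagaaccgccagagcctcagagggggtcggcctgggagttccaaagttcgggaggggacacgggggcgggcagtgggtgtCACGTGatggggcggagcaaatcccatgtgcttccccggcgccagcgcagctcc
The first base of the E-box lies at -189 from the start in Eif4a1 and at -54 in Eif4g1, which holds another after the start. The stretch shown for Eif4e holds none, and the window of its other start holds the letters at -228 and -64. With fasting, 3 of the 10 members with an E-box rose and 1 fell in WT muscle, and 5 rose and 1 fell in MKO muscle. Of the 33 without one, 18 rose and 2 fell in WT and 19 rose and 1 fell in MKO muscle.

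The eIF3 subunits did not move as a block. Of 14, 7 rose and none fell in WT muscle relative to the median gene, and 8 rose and none fell in MKO muscle (median change 0.26 and 0.25). That is 50% and 57.1% of the subunits, where 44.5% and 42.9% of all genes were called (19.9% and 20.2% higher). As deposited, 6 rose in WT and 8 in MKO muscle and none fell (35.9% and 33.8% of all genes called). Eif3a, Eif3b, Eif3c, Eif3d, Eif3g, Eif3j1 and Eif3l rose in both genotypes. These include the largest scaffold subunits and the RNA-binding Eif3g. Eif3f, Eif3h, Eif3i, Eif3j2, Eif3k and Eif3m were called in neither genotype, and Eif3e rose in MKO muscle alone, by 0.23 (lost without any of 4 libraries, adjusted p up to 0.072) against 0.04 in WT. The interaction of Eif3e was 0.19 ± 0.12 (adjusted p = 0.546). Eif3j2, a near copy of Eif3j1, had 0.361 TPM in its lowest library and an interval of -0.84 to 1.42 in WT muscle, and reads of the pair may have been split between them.

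Eif3a, the largest subunit, on which the others assemble, had 34, 35.4, 26.7 and 29.6 TPM in WT fed and 70.7, 59.5, 53.6 and 32.4 TPM in WT fasted libraries. In MKO muscle it had 38.2, 34.9, 39.4, 38 and 39.7 TPM fed and 55, 75.1, 58.4, 63.3 and 76 TPM fasted. WT fasted replicate 4 was the only fasted library within a fed range. The change relative to the median gene was 0.73 ± 0.12 in WT and 0.72 ± 0.11 in MKO muscle (adjusted p = 1.27e-04 and 5.67e-05). Eif3d, which can itself bind the cap of some messengers, followed with 0.55 and 0.65, Eif3c with 0.49 and 0.51, Eif3g with 0.47 and 0.52, Eif3b with 0.47 and 0.43, Eif3j1 with 0.41 and 0.56, and Eif3l with 0.23 and 0.26. Of the 6 subunits called in neither genotype, Eif3j2 stood at 0.29 in WT and -0.14 in MKO muscle, and the other 5 lay between -0.18 (Eif3f) and 0.02 (Eif3h) in WT and between 0.07 (Eif3k) and 0.16 (Eif3h) in MKO muscle. The sum of all 14 subunits was 485 ± 21.7 TPM in WT fed, 563 ± 113 in WT fasted, 586 ± 20.2 in MKO fed and 757 ± 67.7 TPM in MKO fasted muscle (SD, as deposited).

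In the eIF2 arm, 4 of the 5 eIF2B genes and 1 of the 4 eIF2 genes rose in each genotype relative to the median gene. Of the 9 subunits of both complexes, 5 rose and none fell in each genotype, with a median change of 0.18 in each. That is 55.6% of the subunits, where 44.5% of all genes were called in WT and 42.9% in MKO muscle (19.9% and 20.2% higher). As deposited, Eif2b4 alone was called in WT muscle, and Eif2b1, Eif2b4 and Eif2b5 in MKO muscle (35.9% and 33.8% of all genes called). With WT fasted replicate 4 left out, 5 of the 9 were called in WT and 6 in MKO muscle, all higher (43.6% and 42.6% of all genes called). Relative to the median gene, Eif2b4 rose by 0.54 in WT and 0.53 in MKO muscle (adjusted p = 1.96e-04 and 1.05e-04). Eif2b1 rose by 0.29 and 0.41, Eif2b5, the catalytic subunit, by 0.27 and 0.35, and Eif2b3 by 0.30 and 0.23. Eif2b2 among the 5 eIF2B genes was called in neither genotype (-0.11 and 0.08). Of the eIF2 genes, Eif2s3x, the X-linked γ subunit, rose by 0.18 in both genotypes, and its Y-linked copy Eif2s3y was not called (0.06 and -0.02), reads of this pair being hard to assign. In WT muscle the call of Eif2b3 was lost without WT fed replicate 1 or 3 or WT fasted replicate 1, that of Eif2b5 without WT fed replicate 1, and that of Eif2s3x without WT fed replicate 3 or WT fasted replicate 3 (adjusted p up to 0.0754, 0.0533 and 0.0581). In MKO muscle the call of Eif2b3 was lost without any of 12 libraries (adjusted p up to 0.138).

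Eif2s1, the α subunit that the kinases phosphorylate, had 11, 12.5, 11.2 and 12.1 TPM in WT fed and 14.5, 13.5, 12.4 and 8.78 TPM in WT fasted libraries. It had 14.1, 12.8, 15.8, 15 and 13.3 TPM in MKO fed and 15.6, 17.8, 15.9, 16.2 and 16.3 TPM in MKO fasted libraries. Fed and fasted values overlapped in both genotypes. The change relative to the median gene was 0.04 ± 0.09 in WT (95% interval -0.14 to 0.23) and 0.15 ± 0.08 in MKO muscle (-0.01 to 0.32).

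The 4 eIF2 kinases went separate ways. Eif2ak4 (GCN2, which senses uncharged tRNA) rose, Eif2ak2 (PKR, which senses double-stranded RNA) fell, and Eif2ak1 (HRI) and Eif2ak3 (PERK, the kinase of the endoplasmic reticulum) were not called. Eif2ak4 had 0.926, 0.847, 0.87 and 0.741 TPM in WT fed and 1.94, 1.66, 1.86 and 1.07 TPM in WT fasted libraries. It had 1.31, 1.14, 1.03, 0.966 and 1.5 TPM in MKO fed and 2.21, 2.52, 1.86, 2.03 and 2.02 TPM in MKO fasted libraries. No fed and fasted values of a genotype overlapped, although all lie near the low end of the table. The change relative to the median gene was 0.84 ± 0.12 and 0.75 ± 0.11 (adjusted p = 2.18e-05 and 2.62e-05). Eif2ak2 changed by -0.47 ± 0.15 and -0.52 ± 0.14, and its call in WT muscle was lost without WT fed replicate 1 or WT fasted replicate 2 (adjusted p up to 0.072). Eif2ak3 stood at 0.00 in WT and at -0.34 ± 0.14 in MKO muscle (adjusted p = 0.0523). Of the alternative tRNA carriers, Eif2a rose by 0.24 and 0.32 and Eif2d was not called (-0.19 and 0.04).

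The remaining factors are given relative to the median gene. Eif5b, the GTPase of subunit joining, rose by 0.35 and 0.38 (in WT muscle lost without WT fed replicate 3 or WT fasted replicate 1, adjusted p up to 0.0858), while Eif5, Eif5a and Eif5a2 were called in neither genotype. Eif5, the GTPase activator of eIF2, stood at -0.02 and -0.03 and Eif5a at -0.16 and 0.07. Eif6, which holds the large subunit apart, rose by 0.29 and 0.34. Eif1 rose by 0.34 in MKO muscle with 0.08 in WT, and Eif1b by 0.27 with 0.04, the Eif1b call being lost without any of 11 libraries (adjusted p up to 0.13). Eif1ax, which encodes eIF1A, fell by 0.25 in WT muscle and stood at -0.12 in MKO muscle.

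The median of each group over the median gene was also read in every library. The eIF4 factors stood at 2.59 ± 0.05 in WT fed and 3.06 ± 0.22 in WT fasted muscle, and at 2.39 ± 0.09 and 2.83 ± 0.14 in MKO muscle (log2, mean ± SD over libraries). The eIF2 and eIF2B subunits stood at 1.8 ± 0.09 and 2.09 ± 0.10 in WT and at 1.73 ± 0.12 and 2.13 ± 0.11 in MKO muscle. The ranges of fed and fasted libraries did not overlap for either group in either genotype. A median over few genes need not be the same gene in each library. That of the eIF4 factors is Eif4e in every fed library and Eif4a1 or Eif4g3 in every fasted one. Its separation therefore includes a change of gene. The eIF3 subunits stood at 3.07 ± 0.13 and 3.23 ± 0.11 in WT muscle, where the ranges overlapped, and at 3.12 ± 0.09 and 3.44 ± 0.06 in MKO muscle, where they did not. The eIF5 factors overlapped in both genotypes (2.65 ± 0.17 and 2.81 ± 0.18 in WT, 2.53 ± 0.11 and 2.70 ± 0.08 in MKO muscle). Cytosolic ribosomal proteins, for comparison, stood at 3.82 ± 0.12 and 3.78 ± 0.05 in WT and at 3.77 ± 0.13 and 3.89 ± 0.09 in MKO muscle, with overlapping ranges.

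**Figure D4:**
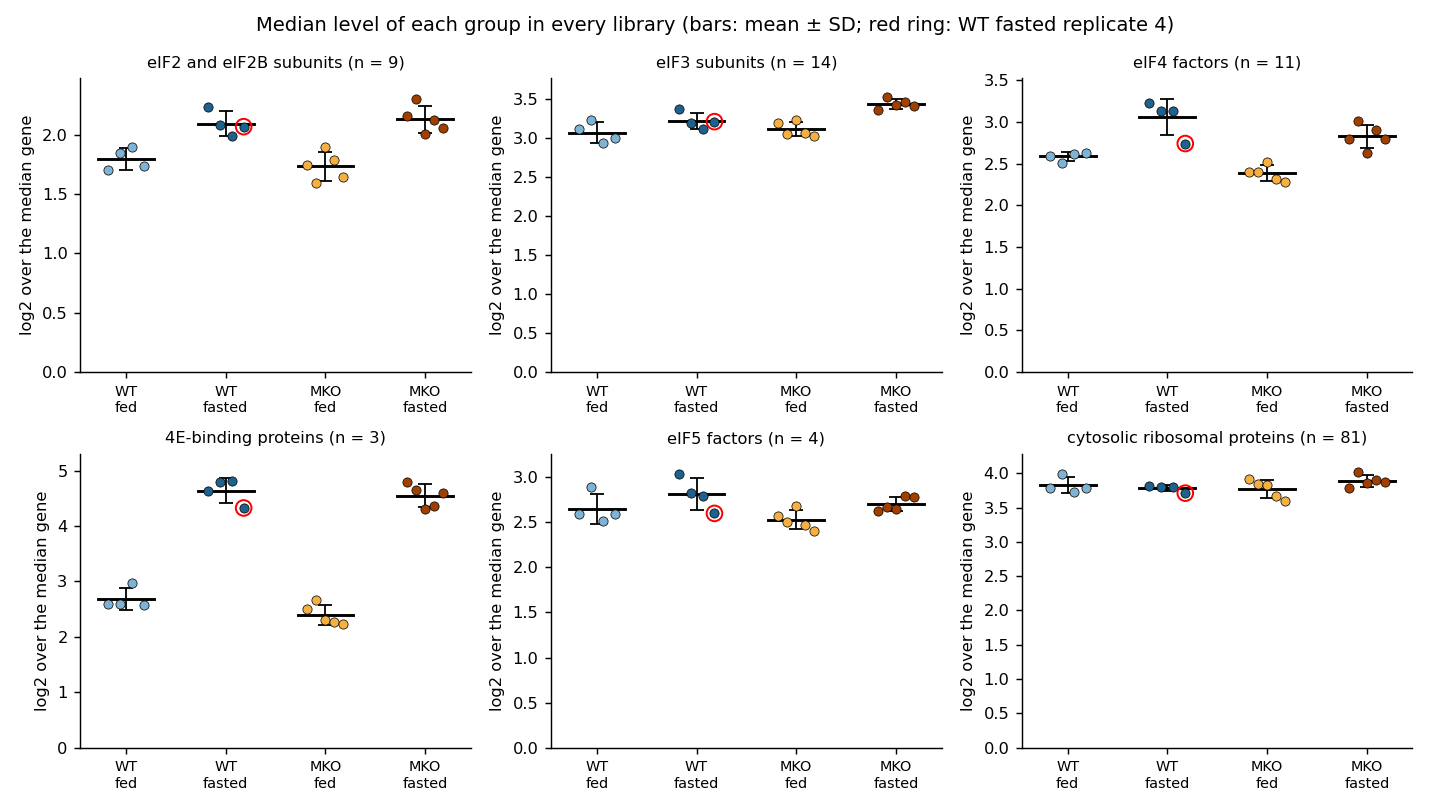
Median log2 level of 5 groups of initiation factors and of 81 cytosolic ribosomal proteins over the median gene of each library, with mean ± SD by group of libraries. For the 4E-binding proteins, a group of 3 genes, the median goes from 2.69 to 4.64 in WT and from 2.39 to 4.54 in MKO muscle. It is Eif4ebp1 in every fed library and Eif4ebp2 in every WT fasted library, so it does not follow a single gene. The median log2 change of the 3 genes with fasting was 0.362 in WT and 0.235 in MKO muscle. The medians of the eIF4 and of the eIF2 and eIF2B groups separate fed from fasted libraries in both genotypes. That of the eIF4 group is Eif4e in fed libraries and Eif4a1 or Eif4g3 in fasted ones.

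Between the genotypes, the median difference of the initiation factors lay close to that of all genes. As deposited, 52 of 53 members were higher in MKO than in WT fed muscle, with a median of 0.26 against 0.25 over all tested genes. Eif2ak3 (0.53 ± 0.14), Eif2s3y (0.36 ± 0.10) and Eif3l (0.39 ± 0.10) passed the test and none was lower, 5.66% of members against 5.05% of all genes (4.87% higher, 0.182% lower). Leaving out 1 library in turn ended all 3 calls for each of 9 libraries, the 5 MKO fed ones among them. Without WT fasted replicate 1 there were 8 calls, and without WT fasted replicate 4 there were 32, all higher. The latter is 60.4% of members against 33.4% of all genes called (32.8% higher). Fasted libraries enter this fed comparison only through the estimate of spread that all groups share. Relative to the median gene the median was -0.01 and none was called (limma; 5 members at an unadjusted p under 0.05, 1.1% of all genes called, 0.289% higher and 0.809% lower), with the members between -0.29 (Eif4ebp1) and 0.73 (Eif3j2, SE 0.51). Quantile normalisation and TPM recomputed without mitochondrial genes also called none. The libraries of the genotypes did not overlap for 31 members as deposited (26.8% of all genes higher, 0.495% lower) and for 0 relative to the median gene (1.86% and 4.33%).

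In fasted muscle 38 of 53 members were higher in MKO than in WT as deposited and none was lower, 71.7% against 38.9% of all genes higher and 39.4% called in either direction (0.528% lower). All 9 eIF2 and eIF2B subunits, 12 of 14 eIF3 subunits, 7 of 11 eIF4 factors and 1 of 4 eIF5 factors were among them. Without WT fasted replicate 4, 21 of the 38 were still called, among them 3 of 9 eIF2 and eIF2B subunits, 6 of 14 eIF3 subunits, 6 of 11 eIF4 factors and 0 of 4 eIF5 factors, which is 39.6% of the members against 23.3% of all genes higher. The median was 0.37, and 0.31 over all tested genes (0.25 and 0.21 without that library). Relative to the median gene the median was 0.05 and Eif3f alone was called (1.89% against 5.19% of all genes, 2.64% higher and 2.54% lower). On that scale 40 of 53 members lay above 0 and 13 below, against 5822 and 6289 of all genes. All 14 eIF3 subunits lay above 0, with a median of 0.14. Without WT fasted replicate 4 that median was 0.10, and Eif3a, Eif3b, Eif3j1 and Eif3j2 lay below 0. The medians of the eIF2 and eIF2B, eIF4 and eIF5 groups were 0.05, 0.02 and -0.10 with all libraries. With TPM recomputed without mitochondrial genes 4 members were called, all lower, and 22 of the 38 differences turned below 0. The share of all genes called or turned below 0 under that setting was not counted, so these counts are not particular to the members. No overlap was seen for 20 members as deposited (22.6% of all genes higher, 0.264% lower) and for 1 relative to the median gene (3.92% and 3.6%). The fiber markers summed to 59050 to 77140 TPM in MKO fasted and to 25930 to 52030 TPM in WT fasted libraries, and to 50690 to 58070 against 44880 to 48430 TPM in fed muscle, with none of the 6 genes at 0 throughout. The endothelial markers summed to 40.2 to 50.7 against 36.3 to 44.2 TPM and those of fibroblasts to 654 to 846 against 461 to 679 TPM in fasted muscle. The part of these shifts and of the mitochondrial share in the result was not tested.

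**Figure D5:**
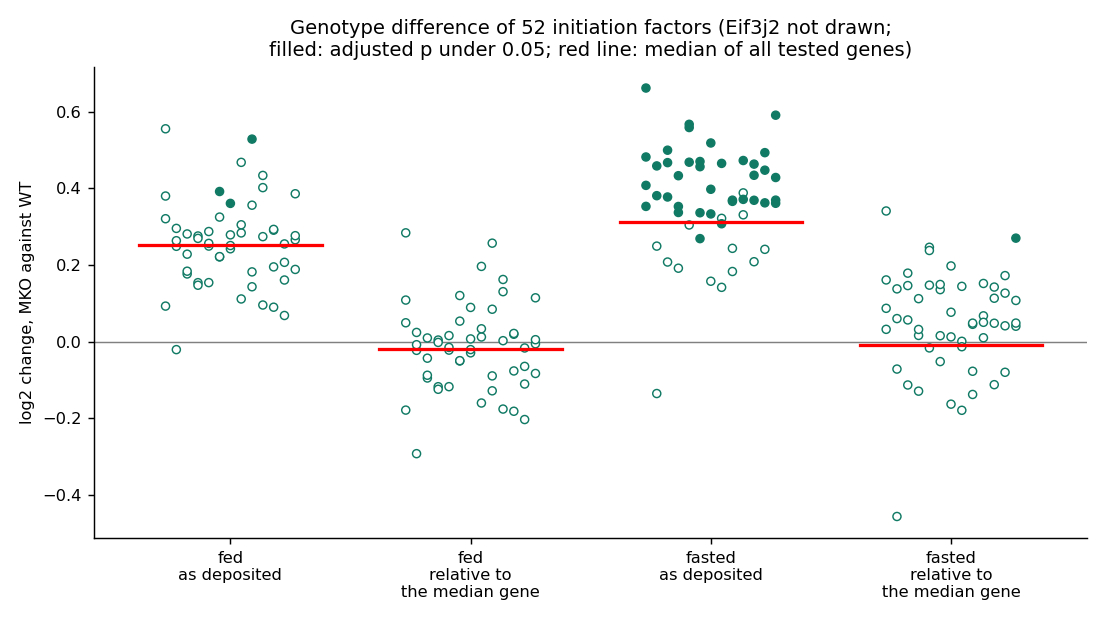
Difference between MKO and WT muscle on the log2 scale for 52 initiation factors, as deposited and relative to the median gene, in fed and in fasted muscle. Each point is a gene, filled where the adjusted p is under 0.05, and the red line is the median of all 12111 tested genes; Eif3j2 (0.999 and 0.62 as deposited) is not drawn. The points lie on both sides of the red line in all 4 columns. In fasted muscle relative to the median gene, 40 of all 53 members lay above 0 and 13 below. The filled points largely disappear after scaling.

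Eif3f, a subunit that binds mTORC1 and the muscle atrophy ligase MAFbx, had 45.4, 35.2, 35 and 27.6 TPM in WT fasted and 54.4, 58.6, 51.9, 49.3 and 52.1 TPM in MKO fasted libraries. In fed muscle it had 38.6, 41.4, 42.9 and 37.2 TPM in WT and 49.6, 50.6, 48.8, 44.6 and 47.1 TPM in MKO libraries. As deposited, all MKO values exceeded all WT values, fed and fasted alike, and relative to the median gene this held in fasted muscle only. The fasted difference was 0.59 ± 0.11 as deposited (adjusted p = 0.00102) and 0.27 ± 0.08 relative to the median gene (adjusted p = 0.0452). The latter call was lost when any of 12 of the 18 libraries was left out (adjusted p 0.0186 to 0.12, and 0.0671 without WT fasted replicate 4), and the interaction was 0.28 ± 0.11 (adjusted p = 0.328).

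Eif4ebp1 was the one member below 0 as deposited in both states (-0.02 fed, -0.14 fasted). Relative to the median gene it stood at -0.46 ± 0.17 in fasted MKO against WT muscle (adjusted p = 0.119). Without WT fasted replicate 4 the difference was -0.62 and passed the test (adjusted p = 0.026), as did that of Eif4g3 (-0.34, adjusted p = 0.0216). As deposited the 5 MKO fasted values of Eif4ebp1 overlapped those of WT with and without that library.

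The interaction of genotype and fasting was called for none of the 53 members, as deposited or relative to the median gene (limma; 0.033% of all genes called as deposited, and 0.116% after scaling with 0.0908% higher and 0.0248% lower). Eif1, Eif2s2, Eif3f and Eif4e had an unadjusted p under 0.05 on both scales, each with a higher fasting change in MKO than in WT muscle. These 4 members are 7.55% of the 53, against 9.11% of all genes as deposited and 11.5% after scaling. Every alternative setting also called no member. The smallest adjusted p was 0.455 as deposited and 0.296 relative to the median gene, so a difference between the genotypes in the fasting response of these factors was not shown.

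Among the partners of the initiation factors, 4 of 9 measured eIF2 phosphatase genes and co-factors rose and 2 fell in each genotype relative to the median gene, where 44.5% of all genes were called in WT and 42.9% in MKO muscle. Ppp1r15a (GADD34, which brings the phosphatase to eIF2α) rose from 6.54 ± 1.04 to 34.3 ± 10.6 TPM in WT and from 9.82 ± 1.6 to 38.4 ± 10.2 TPM in MKO muscle, by 2.32 ± 0.18 and 1.88 ± 0.16 (adjusted p = 2.54e-08 and 6.21e-08). Its constitutive paralog Ppp1r15b rose by 0.71 and 0.57. Gcn1l1, the coactivator of GCN2, rose by 0.86 and 0.93, and Impact, which competes with GCN2 for it, by 1.22 and 1.08.

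Of 21 genes for cap and poly(A) partners, 7 rose and 6 fell in WT muscle and 7 rose and 4 fell in MKO muscle relative to the median gene, 61.9% and 52.4% of the list against the same 44.5% and 42.9% of all genes. Mknk2, a kinase that phosphorylates eIF4E, rose from 62.8 ± 4.66 to 149 ± 23.2 TPM in WT and from 75.2 ± 4.5 to 164 ± 37.1 TPM in MKO muscle, by 1.23 ± 0.11 and 1.04 ± 0.10 (adjusted p = 8.27e-08 and 1.71e-07). Larp4, which binds poly(A) and its binding protein, rose by 0.90 and 0.74, and Denr, a reinitiation factor, fell by 0.60 and 0.44. Between genotypes in fasted muscle, Dhx29, a helicase for structured leaders, was higher by 0.25 relative to the median gene (adjusted p = 0.0291), and Larp4 stood at -0.38 (adjusted p = 0.0384). The call of Dhx29 was lost without WT fasted replicate 4, and that of Larp4 was kept.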

How the data were processed

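Poly(A) RNA libraries of 18 mouse muscles were sequenced and mapped by the authors to mm10 (GRCm38), per the labels. The deposited table gives TPM per gene, computed by the authors with CLC Genomics Workbench, its version and annotation being not given in the sources used here. TPM hold no read counts, so the depth per library is unknown and no counting intervals are given. The table also holds the authors' own fold changes and false discovery rates for 4 comparisons, which were not used. TPM sum to 1 total per library, so a large mitochondrial share lowers all other values.

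Values were tested as log2(TPM + 0.1), on which scale fold changes of low genes are understated. The 12111 genes that reached 0.5 TPM in 4 or more libraries entered. A limma model (version 3.58.1, R 4.3.3) with 4 group means shared 1 estimate of spread (14 residual degrees of freedom), with a variance trend, two-sided tests and Benjamini-Hochberg adjustment over all tested genes; a gene was called at an adjusted p under 0.05. The fit was repeated after each library was shifted to the same median log2 value. The procedure was tested on simulated data with independent noise, the same spread in all groups and no shift of the library median. Those data held no library apart, so they do not speak to the shift or to WT fasted replicate 4. Alternatives were quantile normalisation, TPM without mitochondrial genes, other filters and pseudocounts, a replicate block, only the groups compared, no trend, and each library left out in turn.

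Among 153 pairs of libraries, none repeated another (smallest median difference 0.116 log2). Replicates are biological replicates per the labels. Every member could be named; values of single libraries are given for Eif4ebp1, Eif4ebp2, Eif4e, Eif4g1, Eif2s1 and Eif2ak4 and for up to 6 members per comparison with the smallest adjusted p among those called on both scales, and up to 4 genes per comparison were named from each other list. Members, lists and motifs were chosen with earlier results of these data known. Promoter windows came from RefSeq (GRCm38.p6).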

Additional observations from a re-analysis of the deposited data

Results flagged for a closer look

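In 80 groups of 4 or 5 libraries, the highest or lowest library was compared with its nearest neighbour by Dixon's 95% criterion, and 3 groups had a library apart. Chance alone gives about 1 in 20 such groups. Eif4ebp1 in WT fed muscle had 28.4 TPM in replicate 3, with the next library at 22.3. The same library gave the highest median of the 4E-binding proteins over the median gene in WT fed muscle, 2.98 with the next at 2.60. In the WT fed libraries that median of 3 genes is Eif4ebp1 itself, so both results rest on the same gene. Eif4ebp2 in WT fasted muscle had 58.0 TPM in replicate 4, with the next library at 102. That is the library with the largest mitochondrial share, and relative to the median gene it held 81.4 against 101 to 114 in the others.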

How the results depend on the processing

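As deposited, the 3 calls of fed MKO against WT muscle became 0 with median scaling, quantile normalisation, TPM without mitochondrial genes, no filter or a replicate block, 5 with a pseudocount of 1 and 37 with only the groups compared. The 38 calls in fasted muscle became 1 with median scaling, 1 with quantile normalisation, 4 (all lower) without mitochondrial genes and 11 with only the groups compared. The 17 calls of WT fasting became 29, 30, 29 and 8 under those 4 settings, and the 26 of MKO fasting stayed within 1.5 times. After median scaling, the single call in fasted muscle became 2 with a replicate block and 0 with only the groups compared. With 1 library left out, the calls ranged over 0 to 32 for fed genotype, 21 to 45 for fasted genotype, 14 to 28 for WT fasting and 21 to 34 for MKO fasting. After median scaling they ranged over 0 to 0, 0 to 2, 26 to 30 and 27 to 33. The interaction gave 0 throughout, 0 to 0 on both scales. The cause of these changes was not tested.

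Replicate numbers do not pair the libraries: correlations of same-numbered libraries ran from -0.199 to 0.152. With the replicate block the calls of fed genotype went from 3 to 0 and those of fasted genotype, after median scaling, from 1 to 2, and the other counts stayed within 1.5 times.

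Differences of single genes reversed only in fasted MKO against WT muscle. Recomputing TPM without mitochondrial genes multiplies all remaining genes of a library by the same factor. The differences of all genes therefore shift together, and how many other genes reversed was not counted. Without mitochondrial genes the log2 differences were Eif1 -0.046, Eif1ax -0.115, Eif2ak1 -0.052, Eif2b1 -0.083, Eif2b3 -0.078, Eif2b4 -0.098, Eif2b5 -0.071, Eif2s1 -0.017, Eif2s3x -0.184, Eif2s3y -0.119, Eif3b -0.086, Eif3d -0.018, Eif3e -0.006, Eif3i -0.074, Eif3j1 -0.1, Eif4a2 -0.084, Eif4e -0.089, Eif4e2 -0.02, Eif4g2 -0.117, Eif4h -0.145, Eif5a -0.082 and Eif6 -0.08. With median scaling Eif2s3x was at -0.052 and Eif4h at -0.013, and with quantile normalisation Eif2s3x was at -0.038. Of the other single-gene values, 774 kept direction and call, 59 gained and 158 lost the call, and with libraries left out 1684, 23 and 129 did so. TPM hold no depth, so what low genes such as Eif5a2 could show is not known.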

Other observations

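The later steps of translation were followed through 17 elongation and termination genes. Relative to the median gene, 4 rose and 2 fell in WT muscle, where 44.5% of all genes were called, and 2 rose and 1 fell in MKO muscle, where 42.9% were. As deposited, 1 rose and 2 fell in WT and 3 rose and 1 fell in MKO muscle (35.9% and 33.8% of all genes called). Eef2, the translocase of the ribosome, rose from 377 ± 41.3 to 494 ± 112 TPM in WT (SD, n = 4; log2 change 0.36, limma adjusted p = 0.00465) and from 469 ± 37.8 to 652 ± 68.2 TPM in MKO muscle (n = 5; 0.42, adjusted p = 0.000692). Eef2k, the kinase that inactivates eEF2, went the other way, from 9.67 ± 1.2 to 5.94 ± 1.64 TPM in WT and from 11.2 ± 1.31 to 8.15 ± 0.716 TPM in MKO muscle (-0.74 and -0.50, adjusted p = 0.000147 and 0.00176).

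Of 81 cytosolic ribosomal protein genes, 3 rose and 16 fell in WT muscle with fasting relative to the median gene, where 19.9% of all genes rose and 24.6% fell, and 9 rose and none fell in MKO muscle, where 20.2% rose and 22.7% fell. As deposited, 2 rose and 8 fell in WT muscle (15.3% and 20.7% of all genes). In MKO muscle 5 rose and none fell (18.1% and 15.8% of all genes). With WT fasted replicate 4 left out, 11 rose and 6 fell in WT muscle as deposited, where 25.3% of all genes rose. In MKO muscle 19 then rose and none fell, where 23.5% of all genes rose. Relative to the median gene, 4 then rose and 17 fell in WT muscle, and 13 rose and none fell in MKO muscle. The interaction of genotype and fasting relative to the median gene was called for none of the 81 genes (limma, 21 of 81 at an unadjusted p under 0.05, 25.9% against 11.5% of all genes). With WT fasted replicate 4 left out it was called for 1 of them (1.23% against 0.314% of all genes). Between the genotypes in fasted muscle, 65 of 81 were higher in MKO as deposited, where 38.9% of all genes were, and 5 relative to the median gene, where 2.64% were. Without WT fasted replicate 4, 45 were higher as deposited against 23.3% of all genes. Relative to the median gene, 5 were then higher and 1 lower, where 5.7% of all genes were called (2.72% higher). Of the 5 called with all libraries, 2 were still called.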
